A study of Mus musculus with 6 samples.

Results

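Neurotrophins and their receptors were examined in the cortex of newborn mice, using 5 genes of 23621 in the deposited table: the ligand genes Bdnf and Ntf3 and the receptor genes Ntrk2, Ntrk3 and Ngfr. They were taken by gene name, and all 5 passed the filter on low counts. The 3 wild-type libraries and the 3 libraries of mutants labelled Tle4-/- null came from littermates at postnatal day 0, on a background mixed from C57BL/6J, 129S6 and CD1. Tle4 encodes a Groucho-family transcriptional co-repressor of deep-layer cortical neurons, and the labels name no driver that would limit its loss to a cell type. The labels name no litter for a library and do not say whether tissue was pooled, so p-values measure only the spread between these samples.

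Neurotrophins are small secreted proteins that neurons and their targets release as precursors or as cleaved mature forms. Brain-derived neurotrophic factor (Bdnf) acts through the receptor tyrosine kinase TrkB (Ntrk2), and neurotrophin 3 (Ntf3) mainly through TrkC (Ntrk3). All neurotrophins, and their precursors in particular, also bind p75 (Ngfr), a receptor of the tumour necrosis factor receptor family that has no kinase domain. In the developing cortex Ntrk2 and Ntrk3 are made by neurons, with truncated forms of Ntrk2 in glia, and Ngfr is known from subplate neurons. Outside the cortex, cholinergic neurons of the basal forebrain, meningeal cells and Schwann cells also make Ngfr.

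The libraries held 18617408 to 21632607 counts. Tle4 itself stood at 142 to 198 CPM (counts scaled to library size by the trimmed mean of M values, TMM) in wild-type cortex and 69.3 to 86.8 CPM in the mutant (edgeR quasi-likelihood adjusted p = 0.0377). Leaving out each library in turn, this call was kept in 1 of 6 fits (adjusted p 0.0306 to 0.162). The mutant libraries still held 1481 to 1664 Tle4 counts, so the transcript level by itself does not show a null, and the labels do not say which part of the gene was changed. All 8 cortical markers checked were present, among them Tbr1 at 376 and 357 CPM in wild type and mutant and Neurod6 at 501 and 527 CPM. Xist, the transcript of the inactive X in females, had 11 to 37 counts in the wild types and 66194 to 79080 in the mutants, so sex and genotype cannot be told apart in any value given here. Wild-type replicate 3 also lacked the Y-linked Ddx3y, with 2 counts against 1463 and 1891 in the other wild types. In wild-type replicate 1 the meningeal markers were nearly missing, with a summed level of 15.4 CPM over 10 genes against 186 to 525 CPM in the other libraries.

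Of the 5 genes Ngfr had the largest difference between the genotypes, and it was lower in every mutant library than in any wild-type library. The gene (ENSMUSG00000000120) lies on chromosome 11 from 95568818 to 95587735 of GRCm38, on the minus strand, and no other annotated gene overlaps it. The bases just before its start in GENCODE M21 are shown because this is the gene whose level differed most. They cover chr11:95587736-95587948 on the minus strand of GRCm38.p6, are taken from RefSeq, and run 5′ to 3′ with the motif GGGCGG (the core of the GC box) in capitals.
Ngfr: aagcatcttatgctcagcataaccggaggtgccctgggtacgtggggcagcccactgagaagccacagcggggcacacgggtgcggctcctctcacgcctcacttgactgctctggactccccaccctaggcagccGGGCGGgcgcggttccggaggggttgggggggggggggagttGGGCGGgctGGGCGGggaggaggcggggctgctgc
The motif was searched on both strands, counting overlapping matches, and occurs 3 times in these 213 bases, each time on the strand of the gene. Of 32851 RefSeq windows of the same length and place, 27.4% hold it at least once and 5.47% at least 3 times. Guanine and cytosine make up 70.9% of the stretch, against a median of 51.6% over those windows. TATAAA, the TATA box core, is not among these letters, and 9.67% of the windows hold it on either strand.

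The counts of Ngfr were 536, 254 and 124 in wild-type replicates 1, 2 and 3, and 36, 47 and 45 in the mutant replicates. Scaled for depth this was 27.3, 11.4 and 6.66 CPM in the wild type, and 1.68, 2.46 and 2.35 CPM in the mutant. The lowest wild-type library was 2.71-fold above the highest mutant library, and 3.75% of the 16274 genes tested likewise had every mutant below every wild type. The wild-type libraries differed among themselves by 4.10-fold, the mutants by 1.46-fold. The exact Poisson 95% interval, which covers counting error only, was 492 to 583 counts for the highest wild type and 103 to 148 for the lowest.

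The mean level of Ngfr was 15.1 ± 10.8 CPM in wild-type cortex and 2.16 ± 0.419 CPM in mutant cortex (SD, n = 3 each). The mutant stood at 0.143 of the wild type, with a 95% interval of 0.0598 to 0.343 (log2 fold change -2.80, SE 0.53). By edgeR's quasi-likelihood test with Benjamini-Hochberg adjustment the unadjusted p was 0.00113 and the adjusted p 0.359, which missed the threshold of 0.05. Ngfr ranked 51st of 16274 genes by that p, and among the 14887 genes with a mean of at least 1 CPM, 8 had a log2 fold change as low as or lower than that of Ngfr, itself included. None of the 5 genes passed this test, where 0.111% of all genes did (18 genes). At an unadjusted p under 0.05 there was 1 of the 5, Ngfr, and 3.45% of all genes.

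The call on Ngfr differed between tests. It was lower in the mutant with an adjusted p of 2.53e-07 by the DESeq2 Wald test, which called 0.227% of genes lower. The edgeR exact test, added after the data were seen, gave an adjusted p of 5.09e-05, again with 0.227% of genes called lower. In the authors' deposited table the p-value of Ngfr is 2.69e-09 and the adjusted p 3.18e-06, and 0.182% of its genes are listed as lower at 0.05. By limma-voom the adjusted p was 0.591. The log2 fold change was -2.06 without wild-type replicate 1, the library with the highest Ngfr (edgeR adjusted p = 0.085), and the mutant stayed below the wild type whichever library was left out.

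**Figure D1:**
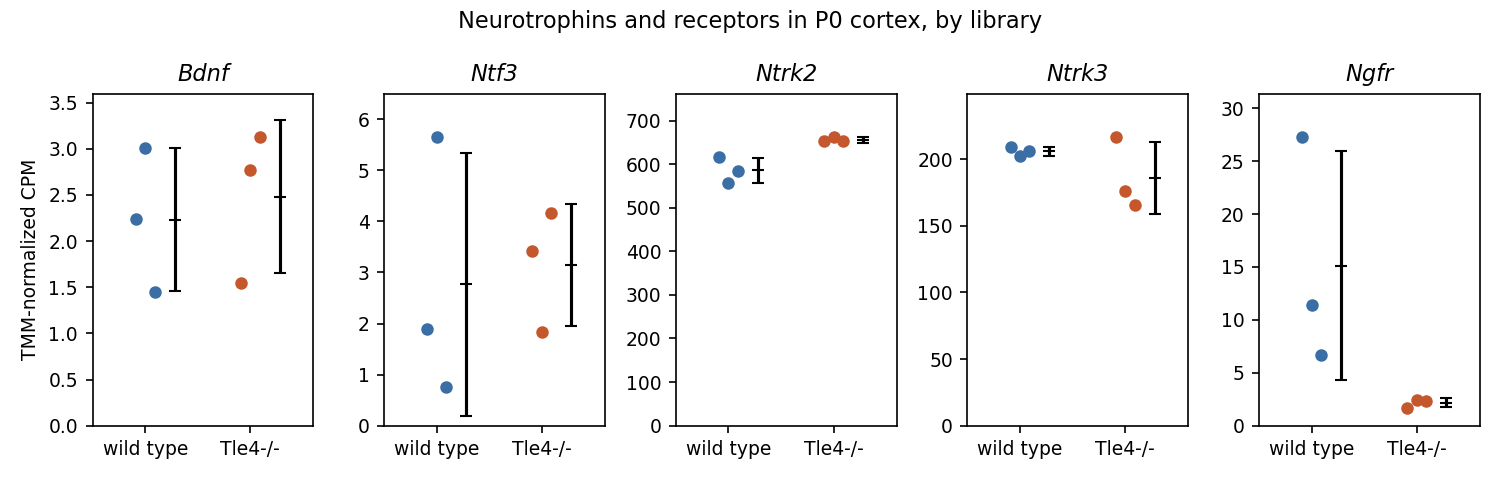
TMM-normalized CPM of the 5 genes in each library (points; wild type left, Tle4-/- right), with the mean and SD of 3 libraries as bars; each panel has its own axis from 0. Ngfr spans 6.66 to 27.3 CPM in wild-type cortex and 1.68 to 2.46 CPM in the mutant, Ntrk2 is higher in all mutants by a small margin, and the other genes overlap.

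**Figure D2:**
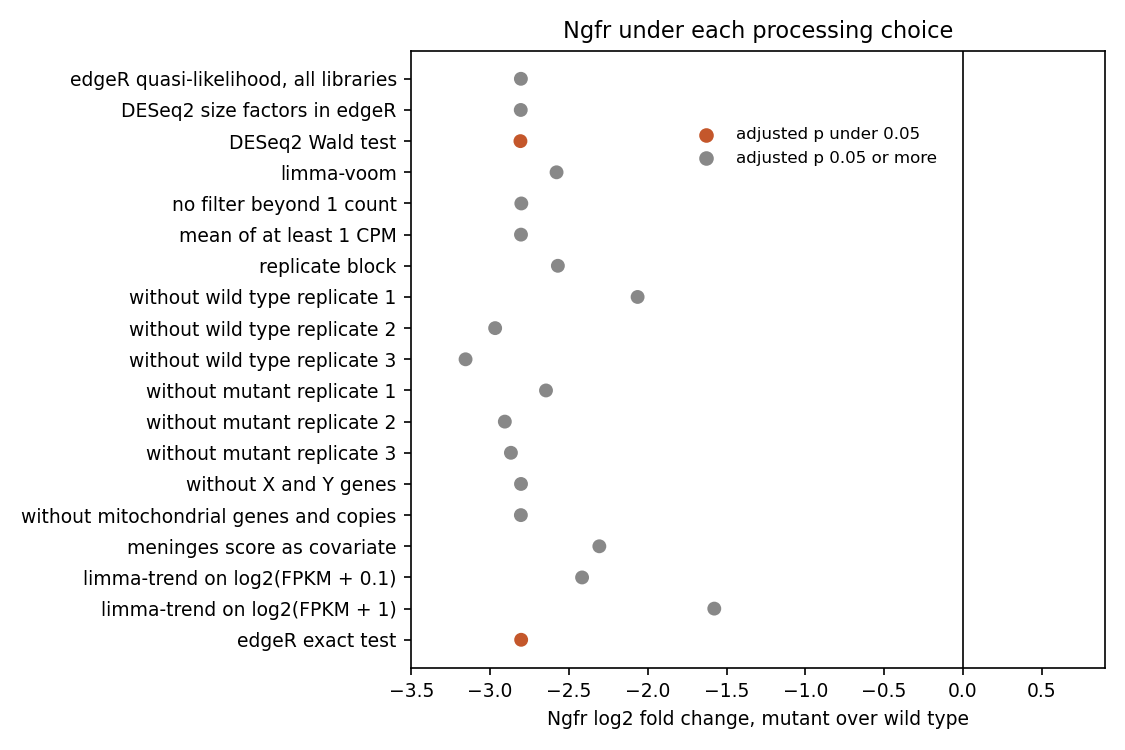
Log2 fold change of Ngfr (mutant over wild type) under each processing choice, coloured by whether the adjusted p is under 0.05. All values lie below 0, from -3.16 to -1.58, and the DESeq2 Wald test and the edgeR exact test are the choices that pass the threshold.

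Markers of cells that are known to make Ngfr did not all move alike between these libraries. Of 8 subplate markers, 1 passed the threshold: Ctgf, a matrix-associated protein of subplate neurons, was lower at 22.8 to 23.5 CPM in wild-type cortex and 6.03 to 9.26 CPM in the mutant (log2 fold change -1.68, edgeR adjusted p = 0.0145, and 0.00839 to 0.11 with each library left out, when 4 of 6 fits missed the threshold). The subplate markers Cplx3 and Nxph4 also had every mutant below every wild type, Pappa2 had every mutant above, and the remaining 4 overlapped. With Ctgf this was 3 of 8 below and 1 of 8 above, where 3.75% of all genes tested had every mutant below and 4.18% every mutant above, and 1 of 8 called, where 0.111% of all genes were. The summed level of the 8 markers was 193 to 207 CPM in wild-type cortex and 174 to 213 CPM in the mutant. Much of that sum was Nr4a2, at 92.8 to 110 CPM in wild types and 82.5 to 133 CPM in mutants. Cplx3 gave a log2 fold change of -1.80 and Nxph4 of -0.89 (edgeR adjusted p = 0.378 and 0.731). Across wild-type replicates 1 to 3, Ctgf was nearly level, and Cplx3 had 1.83, 1.93 and 2.10 CPM. Nxph4 was less even there, with 31.9, 16.9 and 24.3 CPM, and Ngfr varied 4.10-fold. Like Ngfr, Nxph4 was highest in wild-type replicate 1.

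Of 5 markers of cholinergic basal forebrain, 3 could be tested and none passed. The summed level of the 5 was 3.44 to 4.48 CPM in wild-type cortex and 2.04 to 3.02 CPM in the mutant. Lhx8, a transcription factor of these neurons, had 26 to 34 counts in wild-type cortex and 9 to 12 in the mutant (log2 fold change -1.49, edgeR adjusted p = 0.551). Without Lhx8, a choice made after its values were seen, the sum of the other 4 markers was 1.61 to 3.06 CPM in wild types and 1.57 to 2.40 CPM in mutants, and the genotypes overlapped. Chat, the enzyme that makes acetylcholine, had 2 to 7 counts in every library. Of 11 striatal markers 10 had a log2 fold change below 0, with a median of -0.79, and 4 had every mutant below every wild type (51.3% and 3.75% of all genes tested). Their sum was 190 to 274 CPM in wild-type cortex and 140 to 192 CPM in the mutant. No marker of these lists was at 0 in every library, and their part in the Ngfr difference was not tested. In bulk tissue, fewer cells of a type and less RNA per cell cannot be told apart.

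The meningeal sum ran from 15.4 to 525 CPM in wild-type cortex and from 203 to 423 CPM in the mutant. Ngfr was highest in wild-type replicate 1, where the meningeal sum was lowest. Wild-type replicate 2 had more of both than wild-type replicate 3 (meningeal sum 525 and 186 CPM, Ngfr 11.4 and 6.66 CPM). The cause of this pattern was not tested. When a meninges score was a covariate, the log2 fold change of Ngfr was -2.31 (edgeR adjusted p = 0.128). Schwann cell markers were sparse, with a sum of 7.38 to 13.2 CPM in wild types and 9.33 to 13.3 CPM in mutants over 4 genes. Mural and endothelial sums overlapped between the genotypes (100 to 183 against 130 to 159 CPM, and 119 to 194 against 138 to 171 CPM).

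**Figure D3:**
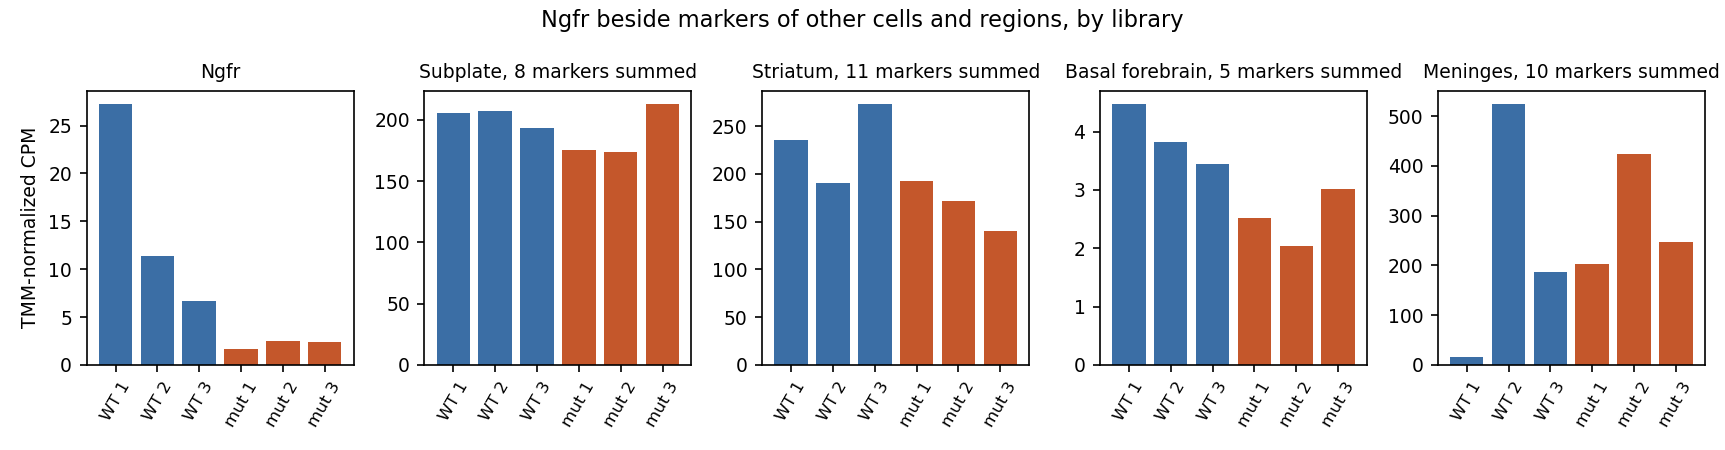
TMM-normalized CPM of Ngfr in each library (bars) beside the summed CPM of marker lists for subplate, striatum, basal forebrain and meninges. Ngfr and the basal forebrain sum (3.44 to 4.48 against 2.04 to 3.02 CPM) are higher in all wild types, the latter only with Lhx8 included. The meningeal sum is lowest, at 15.4 CPM, in wild-type replicate 1, where Ngfr is highest. Wild-type replicate 2 has more of both than wild-type replicate 3.

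The Trk receptor genes had high counts, which are not scaled for gene length, and differed little between the genotypes. Ntrk2 (ENSMUSG00000055254, chromosome 13 from 58806596 to 59133970, plus strand) had 616, 557 and 584 CPM in wild-type cortex and 652, 663 and 652 CPM in the mutant. Every mutant library was above every wild-type library, as for 4.18% of genes tested, but the margin was small. The mutant stood at 1.12 of the wild type (95% interval 0.990 to 1.27, log2 fold change 0.16, SE 0.079, edgeR unadjusted p = 0.0686 and adjusted p = 0.9996). Of the genes tested, 0.965% had a higher mean CPM than Ntrk2.

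Ntrk3 (ENSMUSG00000059146, chromosome 7 from 78175959 to 78738012, minus strand) had 209, 202 and 206 CPM in the wild type, within 1.03-fold of each other. The mutants had 217, 176 and 166 CPM, so mutant replicate 1 was above all wild types and the other two were below them. The mutant stood at 0.903 of the wild type (95% interval 0.759 to 1.07, log2 fold change -0.15 with an SE of 0.11, edgeR adjusted p = 0.9996). The log2 fold change was -0.27 without mutant replicate 1, which moved no call.

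The balance of the Trk receptors was compared as the ratio of their normalised counts within each library. Ntrk2 had 2.95, 2.75 and 2.83 counts for each count of Ntrk3 in the wild type, and 3.01, 3.77 and 3.94 in the mutant. The mean log2 ratio was 1.51 ± 0.049 in wild-type cortex and 1.83 ± 0.21 in mutant cortex (SD, n = 3 each), a difference of 0.32. All mutants lay above all wild types, mutant replicate 1 by little, and the exact 2-sided permutation p was 0.1, the smallest that 3 libraries against 3 can give. The table holds 1 value per gene, while GENCODE M21 lists 10 transcripts of Ntrk2 and 20 of Ntrk3, so full-length and truncated receptors were not told apart.

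The ligand genes were rare transcripts whose levels varied between libraries more than between genotypes. Bdnf (ENSMUSG00000048482, chromosome 2 from 109674700 to 109727007, plus strand) had 44, 67 and 27 counts in wild-type cortex and 33, 53 and 60 in the mutant. That was 2.24, 3.01 and 1.45 CPM against 1.54, 2.77 and 3.13 CPM, and the genotypes overlapped fully. The mutant stood at 1.10 of the wild type with a 95% interval of 0.618 to 1.97 (log2 fold change 0.14 with an SE of 0.37, edgeR adjusted p = 0.9996). Changes of 2-fold in either direction are outside that interval, a rise only just. Leaving out a library moved the log2 fold change between -0.085 and 0.42, so a 2-fold rise is not firmly excluded. Bdnf is read from several promoters, of which RefSeq gives 7 start windows, and the annotated antisense gene Gm45346 overlaps its exons.

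Ntf3 (ENSMUSG00000049107, chromosome 6 from 126101412 to 126166910, minus strand) had 37, 126 and 14 counts in wild-type cortex and 73, 35 and 80 in the mutant. Scaled for depth it was 1.88, 5.66 and 0.752 CPM in wild-type cortex and 3.41, 1.83 and 4.17 CPM in the mutant. Wild-type replicates 2 and 3 were the highest and the lowest of all 6 libraries and 7.52-fold apart. The exact Poisson 95% intervals, which cover counting error only, were 105 to 150 counts and 7.65 to 23.5 counts in these libraries. The mutant stood at 1.13 of the wild type with a 95% interval of 0.375 to 3.38 (log2 fold change 0.17 with an SE of 0.67, edgeR adjusted p = 0.9996). The log2 fold change became 1.25 when wild-type replicate 2 was left out and -0.27 when wild-type replicate 3 was (edgeR adjusted p = 0.947 and 0.9997), so the direction rested on single libraries.

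The ratio of Bdnf to Ntf3 counts crossed 1 in both genotypes, at 1.19, 0.532 and 1.93 in wild-type cortex and 0.452, 1.51 and 0.75 in the mutant. The mean log2 ratio differed by -0.42 (exact 2-sided permutation p = 0.7), less than the SD of 0.94 in wild-type cortex and 0.88 in the mutant (n = 3 each).

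Levels per length were compared on the deposited FPKM, fragments per kilobase of gene model and per library total. In the wild type Ntrk2 was highest at 42.5 ± 1.11 FPKM, followed by Ntrk3 at 5.29 ± 0.0456, Ngfr at 4.37 ± 3.03, Ntf3 at 1.40 ± 1.33 and Bdnf at 0.318 ± 0.117 FPKM (SD, n = 3 each). Ntrk2 stood apart from Ntrk3 in every library, while the ranges of Ntrk3 and Ngfr, of Ngfr and Ntf3, and of Ntf3 and Bdnf overlapped. Within each wild-type library Ngfr was above Ntf3 (7.77 and 0.923, 3.41 and 2.91, 1.93 and 0.376 FPKM), and Ntf3 was above Bdnf. Ngfr was above Ntrk3 in wild-type replicate 1 only. In the mutant the order was Ntrk2 at 47.2 ± 0.589, Ntrk3 at 4.74 ± 0.695, Ntf3 at 1.56 ± 0.588, Ngfr at 0.624 ± 0.121 and Bdnf at 0.349 ± 0.117 FPKM (SD, n = 3 each), and no neighbours overlapped. Ngfr thus stood above Ntf3 on average in wild-type cortex and below it in the mutant.

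The lengths behind these values differ from the annotation at hand. The deposited FPKM and counts give 39018 bases for Ntrk3, 13806 for Ntrk2 and 3446 for Ngfr, and the union of the exons in GENCODE M21 gives 30170, 19292 and 3446 bases. On the latter lengths the order was the same in both genotypes, with Ntrk2 at 30.4 and Ntrk3 at 6.85 FPKM in the wild type. Ngfr and Bdnf then overlapped in the mutant (0.486 to 0.712 and 0.247 to 0.498 FPKM).

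**Figure D4:**
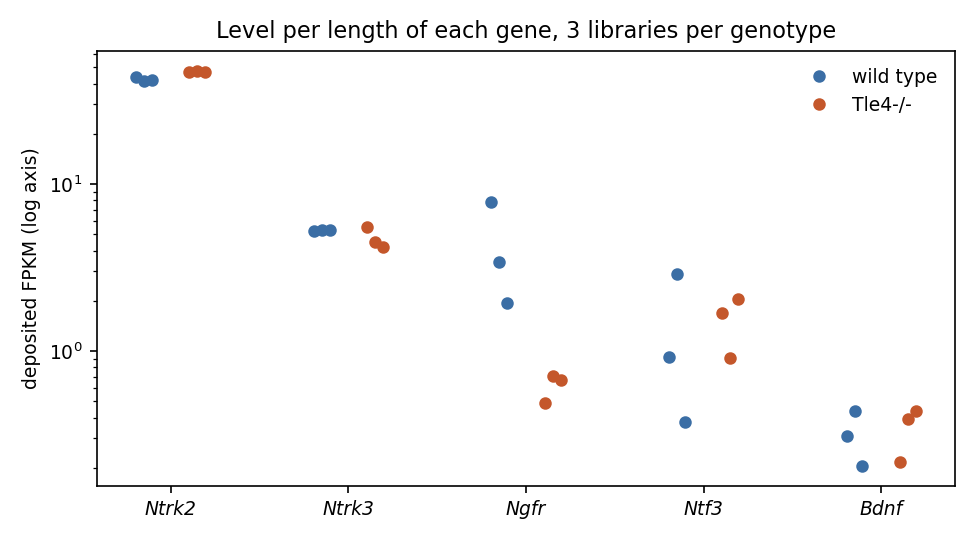
Deposited FPKM of each gene on a log axis, with each library as a point, wild type in blue and Tle4-/- in orange. Ntrk2 lies near 42.5 to 47.2 FPKM and Ntrk3 near 5. Ngfr in the wild type spans 1.93 to 7.77 FPKM, on both sides of Ntrk3, with a mean of 4.37 FPKM. In the mutant the mean of Ngfr lies below that of Ntf3 (0.624 against 1.56 FPKM).

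Ntf5, which encodes neurotrophin 4, had 2, 1 and 0 counts in wild-type cortex and none in any mutant, too few to be tested.

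Sortilin and its relatives bind precursor neurotrophins and sort them or act beside p75. None of the 5 passed the threshold, and their median log2 fold change was -0.0046 against -0.0055 over all genes tested. Sort1 stood at 260 and 259 CPM in wild type and mutant, and Sorl1 at 176 CPM in both. Sorcs1 gave a log2 fold change of 0.27, Sorcs2 of -0.16 and Sorcs3 of -0.12, all with overlapping genotypes.

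Proprotein convertases cut precursor neurotrophins to the mature form. Of 10 processing genes tested none passed the threshold, and the median log2 fold change was -0.055. Every mutant was below every wild type for 3 of the 10, and for 3.75% of all genes tested. Furin, the general convertase of the secretory pathway, had 62.4, 57.9 and 56.3 CPM in wild-type cortex and 47.9, 40.1 and 50.0 CPM in the mutant (log2 fold change -0.36 with an SE of 0.12, edgeR unadjusted p = 0.0144, adjusted p = 0.9996). Pcsk5 gave -0.53 (16.4 to 18.7 CPM in wild types against 10.5 to 13.6 CPM) and Pcsk6 -0.48 (13.0 to 14.2 against 8.09 to 12.4 CPM), with edgeR adjusted p of 0.9996 each. Mmp2, a matrix metalloproteinase that meningeal cells also make, gave 0.47 with overlapping genotypes.

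Genes that act with p75 overlapped between the genotypes throughout. Of 16 tested none passed, 8 lay above 0 and 8 below, and the median log2 fold change was -0.00077. The smallest p belonged to Adam17, a sheddase that cuts p75 (log2 fold change 0.20), Ripk2, a kinase recruited by p75 (-0.30), Ngfrap1, a p75-associated protein (0.34), and Rtn4r, the Nogo receptor, which uses p75 as a co-receptor (-0.15). The log2 fold changes of this list ran from -0.30 to 0.34, against -2.80 for Ngfr.

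Downstream of the Trk receptors, none of 31 adaptors and modulators and none of 24 kinases passed the threshold. Their median log2 fold changes were 0.027 and -0.036. Ptpn11, the phosphatase Shp2 that relays Trk signals, had 187, 189 and 197 CPM in wild-type cortex and 176, 104 and 106 CPM in the mutant (log2 fold change -0.57, edgeR unadjusted p = 0.0211, adjusted p = 0.9996). Mutant replicate 1 was thus close to the wild types. Islr2, a membrane protein that binds Trk receptors, gave -0.33, Dok5 0.16 and Shc4 0.36, all overlapping. Among kinases, Rps6ka1 (0.39) had every mutant above every wild type, and Rps6ka2 (-0.24), Braf (-0.13) and Pik3cb (-0.19) overlapped.

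Genes that neurotrophin signalling or neuronal activity can induce gave no call among 17 tested, with a median log2 fold change of -0.11 and 10 of 17 below 0, as were 51.3% of all genes tested. Egr3 gave -0.51, Homer1 0.22, Nr4a1 -0.23 and Rgs4 -0.16, of which Nr4a1 and Rgs4 had every mutant below every wild type (2 of 17, against 3.75% of all genes tested). Regulators of Bdnf transcription gave no call among 13 tested, with a median of -0.059. The smallest p belonged to Carf (-0.32), Crtc1 (-0.12), Usf2 (-0.14) and Mef2d (-0.14), all overlapping. Over all these pathway lists 116 genes were tested, none passed, and the median log2 fold change was -0.023. Every mutant was below every wild type for 6 of them (5.17%, against 3.75% of all genes) and above for 1, Rps6ka1 (0.862%, against 4.18%).

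**Figure D5:**
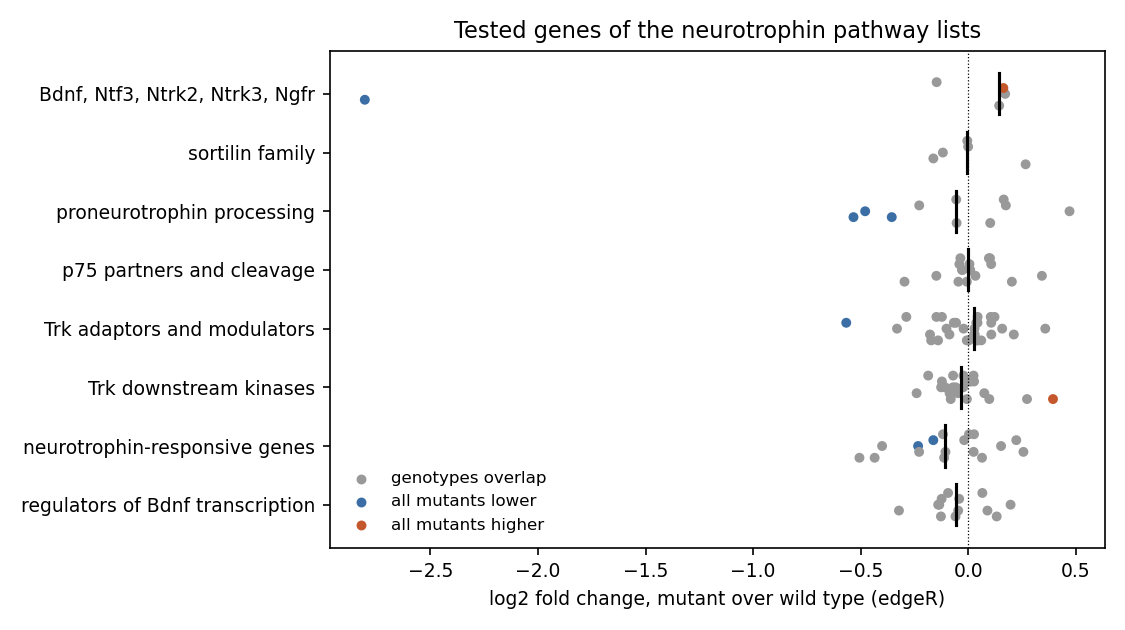
edgeR log2 fold change (mutant over wild type) of each tested gene in the pathway lists, with the median of each list as a black line and colour showing whether the genotypes overlap. Ngfr at -2.80 lies apart from the other genes, which run from -0.57 to 0.47.

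The genes whose levels followed each member most closely were taken by Pearson correlation of log2 CPM over the 6 libraries, among 9491 genes with a mean of at least 10 CPM. With 6 libraries and so many genes high values arise easily, and the libraries share depth and tissue differences, so these are descriptions. For Ngfr they were Osbpl10 (r = 0.984), Fam110b (r = 0.981) and Igsf21 (r = 0.971), whose log2 fold changes of -0.23, -0.26 and -0.40 were much smaller than that of Ngfr. For Ntrk2 they were Kif26a, Atg7 and Tnks1bp1 (r = 0.993, 0.991 and 0.981), and for Ntrk3 Acp1, Snph and Mtss1l (r = 0.984, 0.983 and 0.980). For Bdnf they were Repin1, Nptn and Serpinb6a (r = 0.982, 0.980 and 0.976), and for Ntf3 Prpf31, Rplp1 and Egln3 (r = 0.991, 0.986 and 0.984). None of these 15 genes passed the threshold.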

How the data were processed

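RNA of 3 wild-type and 3 Tle4-/- cortices at postnatal day 0 was analysed from 1 table deposited by the authors, which per the file headers gives a count and an FPKM per gene and library. The p-values deposited by the authors come from their own test of the genotypes. HISAT2 2.0.4, StringTie and edgeR, and GRCm38.p4 and mm10 as builds, stand in the submitters' processing notes. Which program counted reads, on which annotation and whether by strand, is not given in the sources used here. For each of the 5 genes the deposited FPKM equals the count over the library total and 1 fixed length per gene.

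The counts went through edgeR 4.0.16 (R 4.3.3): filterByExpr, TMM factors, a robust quasi-likelihood fit without covariates, 2-sided tests, and Benjamini-Hochberg adjustment over 16274 genes at a threshold of 0.05. SEs were taken from the log2 fold change and F. The edgeR steps were also run on simulated counts, with dispersions taken from the trend over genes. That simulation did not copy the spread of Ngfr between libraries. Alternatives included DESeq2 1.42.0, limma 3.58.1 (voom, and trend on log2 FPKM), other filters and scalings, a replicate block, a meninges covariate and each library left out. In 25 rows a symbol turned into a date was restored from the gene ID.

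Members and gene lists were chosen with earlier results of these data known. The 5 genes, Ntf5 and the sortilin genes were named whatever their result, with the 4 smallest p of each further pathway list, any past the threshold, and the 3 genes most correlated with each member (not on X, Y or the mitochondrial genome, no pseudogenes or unnamed loci). Other genes named were chosen after their values were seen. A few genes of these lists are not reported here.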

Additional observations from a re-analysis of the deposited data

How the results depend on the processing

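Ngfr was lower in the mutant in all 18 alternatives tried, with log2 fold changes of -3.16 to -2.06 over left-out libraries (edgeR adjusted p 0.0748 to 1) and -2.81 to -1.58 over the other 12. It passed the threshold by the DESeq2 Wald test (-2.81) and by the edgeR exact test (-2.80), each of which called 1 of the 5 genes, where the other alternatives called 0. The value nearest 0, -1.58, used log2(FPKM + 1), which shrinks low values by construction. Leaving out a library moved Bdnf between -0.085 and 0.42, Ntf3 between -0.27 and 1.25, Ntrk2 between 0.13 and 0.20 and Ntrk3 between -0.27 and -0.070. Bdnf was below 0 without wild-type replicate 3 (-0.085) and mutant replicate 3 (-0.057). Ntf3 was below 0 without wild-type replicates 1 and 3 (-0.044 and -0.27) and mutant replicate 3 (-0.083). The cause was not tested. The difference in the ratio of Bdnf to Ntf3 ran from -0.92 to 0.010, the latter without wild-type replicate 3, and that of Ntrk2 to Ntrk3 from 0.25 to 0.44. Over all genes, 18 calls became 58 by DESeq2, 57 by the exact test, and 8 to 19 with a library left out, the fewest without mutant replicate 3.

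With the replicate number as a block, 9 genes were called, Ngfr gave -2.57 (edgeR adjusted p = 0.612) and Ntf3 0.50. The deviations of same-numbered libraries correlated with r = -0.063, 0.10 and -0.018, and only replicate 2 correlated best with its own number. Wild-type replicate 1 correlated best with mutant replicate 3 (r = 0.092), and wild-type replicate 3 with mutant replicate 1 (r = 0.099). Deviations were taken from the mean of 3 libraries per genotype, so these values cannot settle whether the numbers pair the libraries. Bdnf and Ntf3 had 14 to 126 counts a library, and Ngfr 36 to 536; how far depth limits them was not tested apart from the spread between libraries.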
